A study of Homo sapiens with 6 samples.

Results

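Matrix metalloproteinases, their tissue inhibitors and ADAMTS1 were followed across 6 samples of the human bladder cancer line RT4 and its derivatives. The members are 10 genes, taken wherever the array's gene name was MMP1, MMP7, MMP10, MMP13, MMP14, MMP15, TIMP1, TIMP2, TIMP3 or ADAMTS1. They were chosen by earlier readings of their signals on these same arrays, so every difference below is a description. They have 13 of the 47322 probes and are 10 of 34694 gene names on the Illumina HumanHT-12 version 4 bead array. Total RNA of each sample was hybridised to 1 array.

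The sphere sample came from RT4P cells, the parental RT4 stock, given 1 uM cisplatin and 20 mM lithium chloride for 24 h, then 4 h of transformation and purification of spheres. The blebbishield sample came from RT4P cells after the same 24 h of both agents. Blebbishields are cell bodies that survive apoptosis and may fuse into spheres, and this sample mixed sphere-forming with other blebbishields. The remaining samples were untreated live cells in the same medium. RT4P-BSE2 cells had gone through blebbishield formation and recovery 2 times. RT4v6 cells had been passaged 6 times through mice to enrich cancer stem cells. PBSHMS is a line made by fusing RT4 blebbishields with human blood mononuclear cells. RT4P live cells were the parental cells. There was no live sample given the agents and no untreated blebbishield sample, so drug exposure and post-apoptotic state cannot be told apart. The labels do not say whether a derived line is 1 clone. In bulk RNA, fewer cells of a type and less RNA per cell cannot be told apart.

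With a single array per group there is no replicate error, and differences carry no test. The threshold for calling a gene is a 2-fold difference. A probe counts as detected when its deposited detection p-value, against negative control beads, was under 0.01. Levels are background-corrected, quantile-normalized signals on the log2 scale, with an offset of 16 that compresses dim values. They are compared between arrays for 1 probe at a time and never between genes. Where a probe was detected on only 1 array of a pair, the dim value was raised to the lowest value of any detected probe, and the fold is written as "at least". As a gauge of spread, the log2 difference between 2 arrays was set against that of a second probe of the same gene. The SD of the gap between these differences, divided by the square root of 2, was 0.27 to 0.49 over the 15 pairs of arrays. This probe spread is not replicate error.

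The blebbishield array detected 14749 probes and had a mean signal of 263.2, while the other 5 arrays detected 15788 to 17593 probes with mean signals of 349.5 to 389.2. All 13 urothelial markers, such as uroplakins, keratins and GATA3, were detected on every array. Of 12 leukocyte markers 2 to 5 were detected per array, 2 of them in PBSHMS (HCLS1 and ITGAM) against 3 in RT4P live cells. HCLS1 was 6.91-fold lower in blebbishields and 6.90-fold lower in spheres than in RT4P live cells. None of 8 fibroblast markers was detected on any array. Of 4 endothelial markers only VWF was detected, on all arrays but PBSHMS. It was 2.58-fold higher in blebbishields and at least 3.42-fold lower in PBSHMS than in RT4P live cells. The part of these markers in the members' differences was not tested.

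Matrix metalloproteinases are zinc-dependent proteases that are secreted or held at the cell surface as inactive proforms and cut matrix and surface proteins once the propeptide is removed. TIMPs bind the active site and block it, and TIMP3, unlike the other members of its family, is held in the matrix. TIMP3 also inhibits ADAM and ADAMTS proteases. In epithelial tumours, including those of the bladder, the balance between these proteases and inhibitors is studied for its part in invasion. Many genes of the secreted enzymes lie together in a cluster on chromosome 11.

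The promoters of MMP7, MMP10 and TIMP3 are shown because MMP7 and MMP10 had the deepest losses and TIMP3 the largest gain among the members with a promoter entry. Each run is the 250 bases before the gene's RefSeq start on GRCh38.p14, read 5′ to 3′ on the gene's strand. The MMP7 window is chr11:102530748-102530997 on the minus strand, the MMP10 window chr11:102780629-102780878 on the minus strand and the TIMP3 window chr22:32801455-32801704 on the plus strand. Capitals mark every match to an AP-1 motif (TGANTCA), a TCF/LEF motif (CTTTGA) or an SP1 motif (GGGCGG), each searched on both strands, and to a TATA box (TATAAA) on the gene's strand.
MMP7: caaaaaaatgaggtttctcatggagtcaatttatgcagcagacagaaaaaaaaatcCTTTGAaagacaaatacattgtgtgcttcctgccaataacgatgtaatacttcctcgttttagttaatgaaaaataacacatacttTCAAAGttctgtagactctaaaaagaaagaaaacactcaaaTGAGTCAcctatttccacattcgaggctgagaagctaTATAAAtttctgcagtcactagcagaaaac
MMP10: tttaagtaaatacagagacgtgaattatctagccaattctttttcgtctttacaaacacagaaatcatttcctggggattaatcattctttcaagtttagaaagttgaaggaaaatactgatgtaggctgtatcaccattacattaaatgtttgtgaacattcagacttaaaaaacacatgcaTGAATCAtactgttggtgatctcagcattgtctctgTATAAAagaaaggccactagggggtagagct
TIMP3: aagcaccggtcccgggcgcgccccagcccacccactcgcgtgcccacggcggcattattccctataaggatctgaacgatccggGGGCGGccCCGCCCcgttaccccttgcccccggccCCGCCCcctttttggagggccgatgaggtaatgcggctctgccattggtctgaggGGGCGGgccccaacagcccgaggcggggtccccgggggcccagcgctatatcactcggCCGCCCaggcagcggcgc
GC content was 33.6% in MMP7, 34.4% in MMP10, 56.8% in MMP14, 74.8% in MMP15, 64.8% in TIMP1 and 72.4% in TIMP3, against a median of 58.0% over 27305 promoters of the same length. MMP7 and MMP10 each held 1 AP-1 match, at bases -67 to -61 before the start in both, and 1 TATA match. MMP7 also held 2 TCF/LEF matches. TIMP3 held 5 SP1 matches and none of the other motifs. Among all 27305 promoters 6.6% held the AP-1 motif, 11.4% the TCF/LEF motif, 42.3% the SP1 motif and 7.17% the TATA box. A match describes the letters only. Promoters were found for 6 of the 10 members. MMP14, MMP15 and TIMP1 held 1, 5 and 2 SP1 matches and no AP-1 match, and MMP1, MMP13, TIMP2 and ADAMTS1 had no entry.

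The 10 members divided by array. On the sphere, RT4P-BSE2, RT4v6 and RT4P live arrays 9 of 10 were detected by at least 1 probe. The PBSHMS array detected 6 and the blebbishield array 5. Both arrays lacked MMP1, MMP10 and MMP15. MMP13 was missing only from the RT4v6 and PBSHMS arrays, and MMP14 and TIMP2 only from the blebbishield array. The blebbishield array was also the dimmest, and the part of its lower overall signal in these missing members was not tested.

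**Figure D1:**
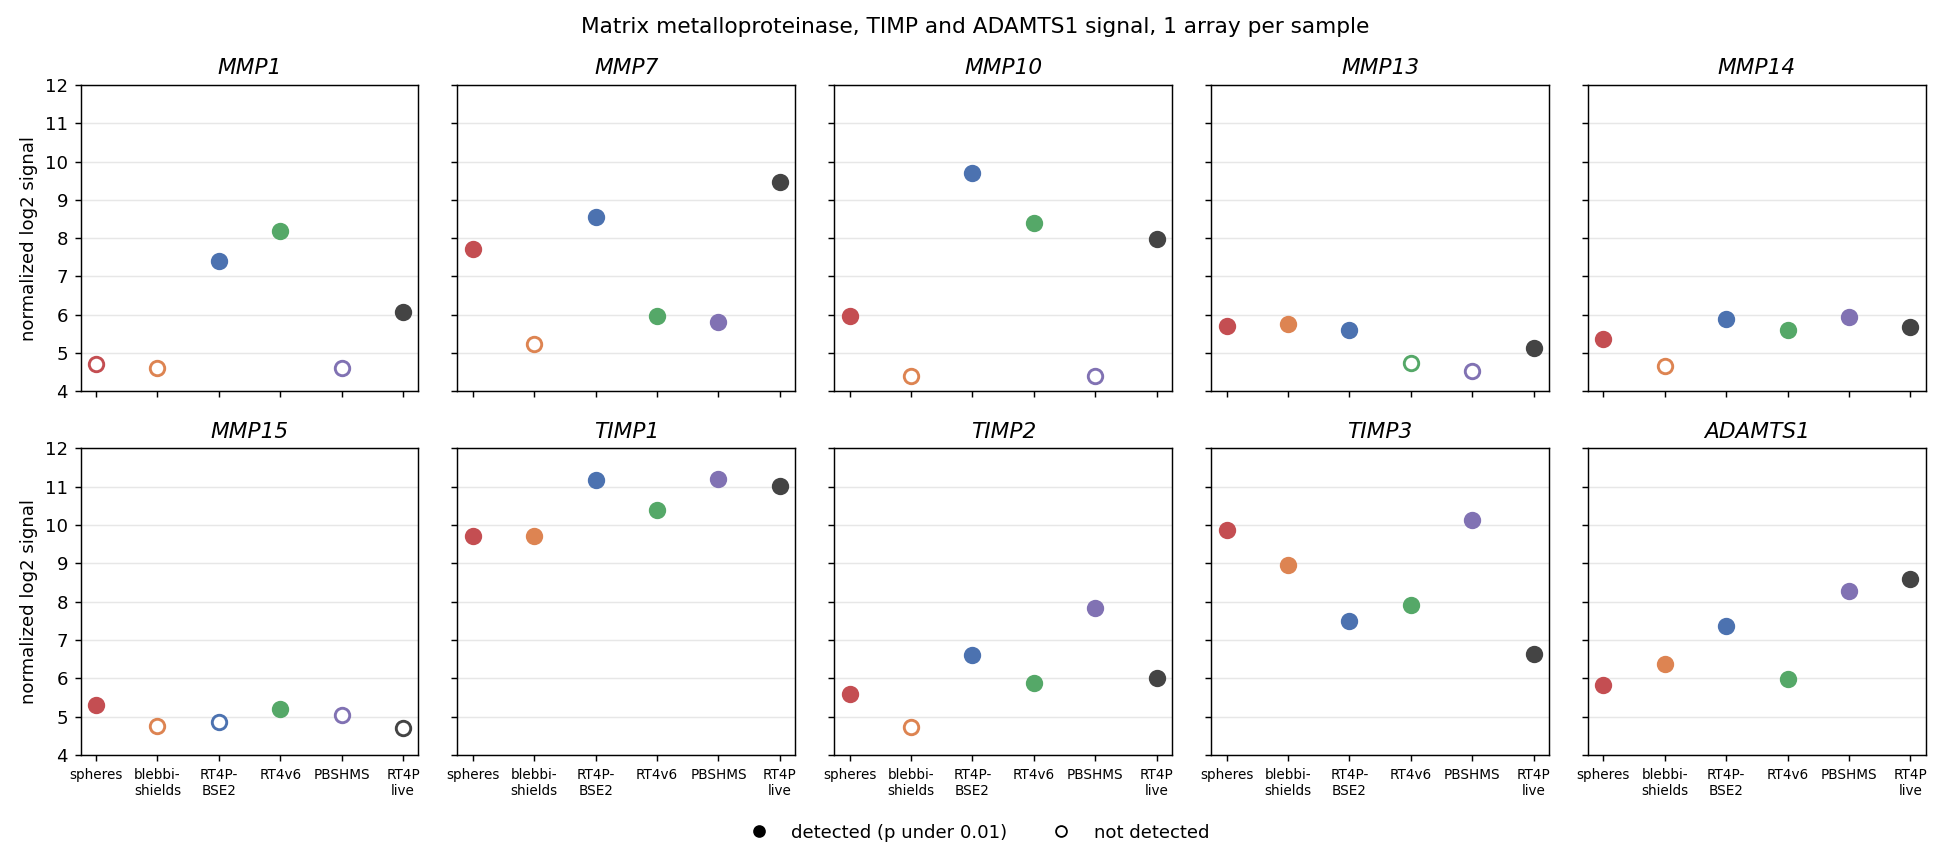
Normalized log2 signal (vertical axis) of each member's brightest probe on the 6 arrays (horizontal axis), 1 point per array, filled where detected and open where not. MMP7 is highest and TIMP3 lowest on the RT4P live array, and MMP1 and MMP10 are highest on the live RT4P-BSE2, RT4v6 and RT4P arrays.

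MMP7, or matrilysin, is a small secreted protease made by epithelial cells and a known target of Wnt signalling. Its brighter probe gave raw signals of 330.9 in spheres, 101.3 in blebbishields, 485.2 in RT4P-BSE2, 145.1 in RT4v6, 133.8 in PBSHMS and 847.4 in RT4P live cells. The normalized levels were 7.72 in spheres, 5.25 in blebbishields, 8.56 in RT4P-BSE2, 5.97 in RT4v6, 5.80 in PBSHMS and 9.46 in RT4P live cells. The parental live cells stood above all others, and the RT4v6 and PBSHMS levels lay within the probe spread of each other. A second MMP7 probe gave levels of 7.45, 5.47, 8.25, 5.84, 5.85 and 9.21 for spheres, blebbishields, RT4P-BSE2, RT4v6, PBSHMS and RT4P live cells. Its order differed only in RT4v6 and PBSHMS, which were nearly equal. On the blebbishield array the brighter probe was not detected while the second was. Against RT4P live cells, MMP7 was therefore at least 15.9-fold lower in blebbishields by the brighter probe and 13.3-fold lower by the second.

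In the live lines, MMP7 was 12.6-fold lower in PBSHMS than in RT4P live cells by the brighter probe and 10.2-fold lower by the second. It was the fourth lowest difference among 13803 genes in that comparison. In RT4v6 cells it was 11.2-fold lower by the brighter probe and 10.3-fold by the second. In RT4P-BSE2 it was 1.86-fold lower by the brighter probe and 1.94-fold by the second, under the 2-fold threshold. Even so it ranked 70 among the lowest differences of 14427 genes there, since few genes differed in that comparison. Spheres were 3.33-fold lower than RT4P live cells and at least 4.77-fold higher than blebbishields, or 3.96-fold higher by the second probe.

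MMP10, or stromelysin 2, is a secreted protease that cuts many matrix proteins and can activate other proforms. Its single probe gave raw signals of 157.3 in spheres, 85.5 in blebbishields, 954.0 in RT4P-BSE2, 440.2 in RT4v6, 92.5 in PBSHMS and 354.6 in RT4P live cells. It was not detected in blebbishields or in PBSHMS. The normalized level was 9.69 in RT4P-BSE2 against 7.97 in RT4P live cells, which is 3.29-fold higher. In RT4v6 it was 8.39, which is 1.34-fold higher and under the threshold. MMP10 was at least 6.55-fold lower in PBSHMS, at least 5.65-fold lower in blebbishields and 3.96-fold lower in spheres than in RT4P live cells.

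MMP1, or interstitial collagenase, cuts fibrillar collagens and lies next to MMP10 in the order of MMP genes on chromosome 11. Its probe gave levels of 7.41 in RT4P-BSE2, 8.18 in RT4v6 and 6.06 in RT4P live cells. It was not detected in spheres, blebbishields or PBSHMS. MMP1 was thus seen only in 3 of the 4 live lines. It was 4.34-fold higher in RT4v6 and 2.55-fold higher in RT4P-BSE2 than in RT4P live cells. In spheres it was at least 2.08-fold lower than in RT4P live cells, close to the threshold, and the bounds for blebbishields (1.51-fold) and PBSHMS (1.75-fold) did not reach it.

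MMP13, or collagenase 3, also acts on fibrillar collagen. Its levels were low on every array, at 5.70 in spheres, 5.75 in blebbishields, 5.61 in RT4P-BSE2, 4.74 and undetected in RT4v6, 4.54 and undetected in PBSHMS and 5.14 in RT4P live cells. Blebbishields and spheres lay within the probe spread of each other, and MMP13 did not pass 2-fold in any comparison. MMP14, the membrane-bound protease that activates pro-MMP2, varied from 4.67 and undetected in blebbishields to 5.93 in PBSHMS. Its levels on the other 4 arrays were 5.36 in spheres, 5.88 in RT4P-BSE2, 5.61 in RT4v6 and 5.69 in RT4P live cells, each within the probe spread of its neighbour. MMP15, another membrane-bound protease, was detected only in spheres (5.30) and RT4v6 (5.20), near the lowest detected level on those arrays (5.01 and 5.12). For MMP13, MMP14 and MMP15 the signal sits close to background, so that folds from these values are strongly compressed.

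TIMP3 showed a pattern unlike those of MMP1, MMP7 and MMP10. Raw signals were 1164.6 in spheres, 373.5 in blebbishields, 273.9 in RT4P-BSE2, 337.3 in RT4v6, 1218.9 in PBSHMS and 188.2 in RT4P live cells. The probe was detected on all 6 arrays, and even the dim blebbishield array gave a higher raw signal than RT4P live cells. The normalized levels were 9.87 in spheres, 8.96 in blebbishields, 7.49 in RT4P-BSE2, 7.91 in RT4v6, 10.14 in PBSHMS and 6.63 in RT4P live cells. PBSHMS and spheres lay within the probe spread of each other, and every other neighbouring pair in this order differed by more.

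Against RT4P live cells, TIMP3 was 11.4-fold higher in PBSHMS, 9.48-fold in spheres, 5.02-fold in blebbishields and 2.43-fold in RT4v6. In RT4P-BSE2 it was 1.82-fold higher, under the threshold. Only 2 of 13803 genes had a larger upward difference in PBSHMS, and TIMP3 ranked 24 of 14705 in spheres. Spheres were 1.89-fold higher than blebbishields, under the threshold. That log2 difference of 0.92 became 1.67 with arrays shifted to equal medians and 1.84 without between-array normalization, both past 2-fold. Under the same settings the difference of blebbishields from RT4P live cells, 2.33 here, became 1.65 and 1.52. The TIMP3 gene lies inside SYN3, a synapsin gene, whose 2 probes were detected in 0 of 12 measurements. 

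TIMP1, a secreted inhibitor that is strongly expressed in many tumours, was detected on all arrays. Its levels were 9.71 in spheres, 9.71 in blebbishields, 11.18 in RT4P-BSE2, 10.40 in RT4v6, 11.21 in PBSHMS and 11.03 in RT4P live cells. The post-apoptotic samples stood below all 4 live lines. TIMP1 was 2.50-fold lower in spheres and 2.50-fold lower in blebbishields than in RT4P live cells. The blebbishield value depended on the scaling, with a log2 difference of -1.32 here, -2.04 with arrays shifted to equal medians and -2.17 without between-array normalization. Under those settings spheres stood 0.74 and 0.90 log2 units above blebbishields. RT4v6 was 1.55-fold lower, while PBSHMS (1.13-fold higher) and RT4P-BSE2 (1.11-fold higher) lay within the probe spread of RT4P live cells. TIMP1 lies inside SYN1, which had 1 detection in 18 measurements.

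TIMP2, which inhibits secreted proteases and also takes part in pro-MMP2 activation with MMP14, had 3 probes. Only 1 was detected, with levels of 5.60 in spheres, 4.74 and undetected in blebbishields, 6.62 in RT4P-BSE2, 5.87 in RT4v6, 7.84 in PBSHMS and 6.01 in RT4P live cells. PBSHMS was 3.57-fold higher than RT4P live cells and RT4P-BSE2 1.53-fold higher. The other TIMP2 probes were not detected on any array, with levels of 4.25 to 4.97. Both were highest in PBSHMS, at 4.97 and 4.76, but an order among undetected levels carries little weight. A gene called from 1 of 3 probes has less behind it than MMP7, whose probes moved together.

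**Figure D2:**
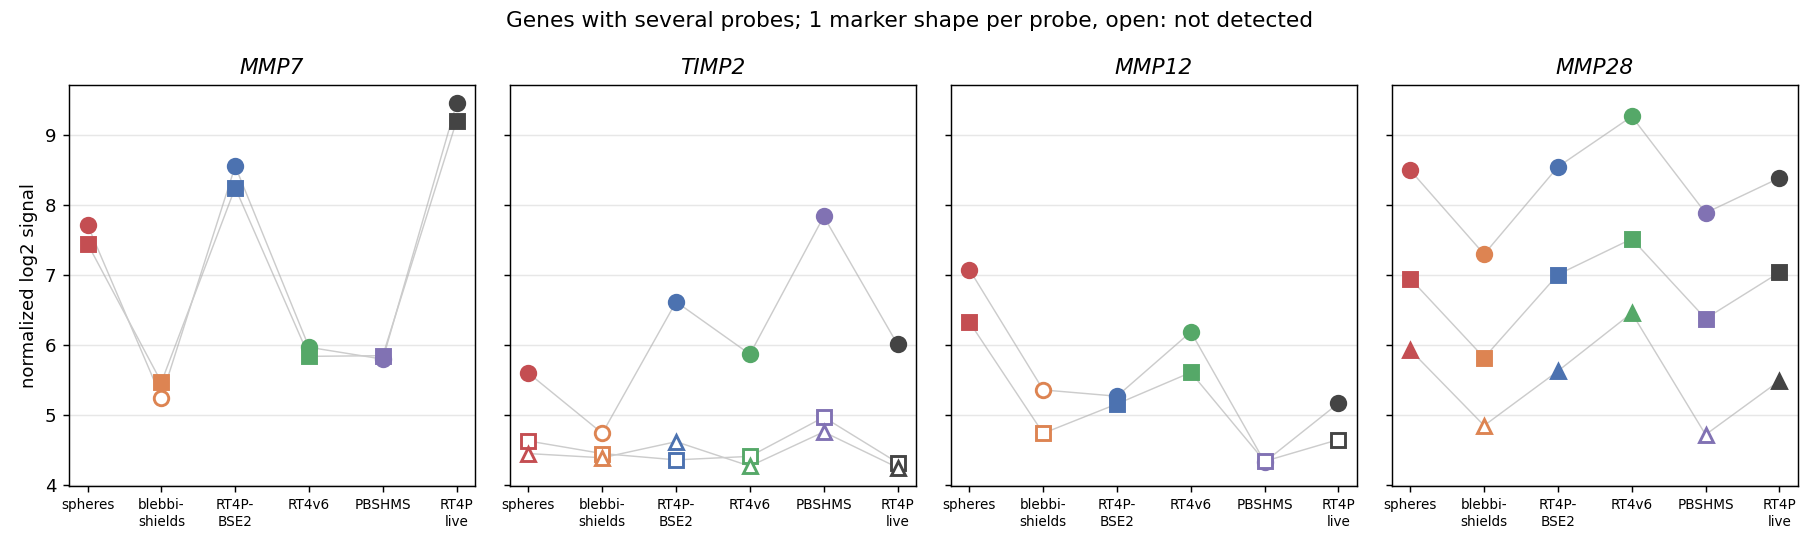
Normalized log2 signal (vertical axis) by array (horizontal axis) for the 4 genes of these families with several probes and a detected signal, 1 marker shape per probe, filled where detected. The MMP7 probes lie close together on every array, while 1 of 3 TIMP2 probes carries the detected signal, highest in PBSHMS at 7.84.

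ADAMTS1 is a secreted protease with thrombospondin repeats that cuts proteoglycans such as versican and aggrecan, and it is a known binding partner of TIMP3. Its levels were 5.82 in spheres, 6.37 in blebbishields, 7.37 in RT4P-BSE2, 5.97 in RT4v6, 8.28 in PBSHMS and 8.58 in RT4P live cells. The probe was detected on all 6 arrays, and spheres, RT4v6 and blebbishields formed the low end, each within the probe spread of its neighbour. The place of blebbishields depended on the scaling. Spheres against blebbishields had a log2 difference of -0.55 here, 0.08 with arrays shifted to equal medians and 0.24 without between-array normalization. Blebbishields against RT4P live cells had -2.21, -2.80 and -2.94 under the same settings. Against RT4P live cells, ADAMTS1 was 6.77-fold lower in spheres, 6.12-fold lower in RT4v6, 4.63-fold lower in blebbishields and 2.32-fold lower in RT4P-BSE2. In PBSHMS it was 1.23-fold lower, under the threshold. The RT4P-BSE2 value was the thirteenth lowest among 14427 genes, in a comparison with few large differences.

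The members were then counted in each comparison, with the share of all genes past 2-fold beside them. Bounded differences entered the medians at the bound, for members and for all genes. In blebbishields against RT4P live cells, 9 members were measured, of which 1 was higher (TIMP3) and 4 were lower (MMP7, MMP10, TIMP1 and ADAMTS1), while of 13878 genes 7.08% were higher and 4.76% lower, 11.8% in all. The member median was -0.59 on the log2 scale and that of all genes was 0.00. This member median was the bound of MMP1, and 5 of the 9 member differences were bounds. In spheres against RT4P live cells, 1 of 10 was higher (TIMP3) and 5 were lower (MMP1, MMP7, MMP10, TIMP1 and ADAMTS1), while of 14705 genes 2.99% were higher and 3.3% lower, 6.3% in all. The member median was -0.73, with 2 bounds among the members, against 0.00 for all genes. Both of these comparisons share the RT4P live array. Between spheres and blebbishields, 1 of 9 measured members differed, MMP7, which was higher in spheres. In that comparison 3.01% of 14337 genes were higher and 5.98% lower, 8.98% in all. The median was 0.00 for members and for all genes. Of the 9 member differences 5 were bounds, and those of MMP14 and MMP15 were 0.00. The member median is therefore itself a bound and not a measured typical difference.

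In RT4P-BSE2 against RT4P live cells, MMP1 and MMP10 were higher and ADAMTS1 was lower among 9 measured members, while of 14427 genes 1.3% were higher and 0.27% lower, 1.57% in all. The member median was 0.47 and that of all genes -0.01. In RT4v6, MMP1 and TIMP3 were higher and MMP7 and ADAMTS1 lower among 10, while of 14215 genes 1.15% were higher and 2.41% lower, 3.55% in all. The medians were -0.05 for members, with 2 bounds among them, and 0.02 for all genes. In PBSHMS, TIMP2 and TIMP3 were higher and MMP7 and MMP10 lower among 9, while of 13803 genes 1.8% were higher and 2.04% lower, 3.83% in all. Both medians were 0.00, but that of the members was the bound of MMP13, 1 of 3 bounds among them. No member was called in all 3 live lines. MMP1, MMP7, MMP10, TIMP3 and ADAMTS1 were called in 2 of them each, MMP10 higher in RT4P-BSE2 and lower in PBSHMS, and TIMP2 in 1. Differences between the live lines were not tested. The comparisons share the RT4P array, so a high or low value on that array enters all of them.

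**Figure D3:**
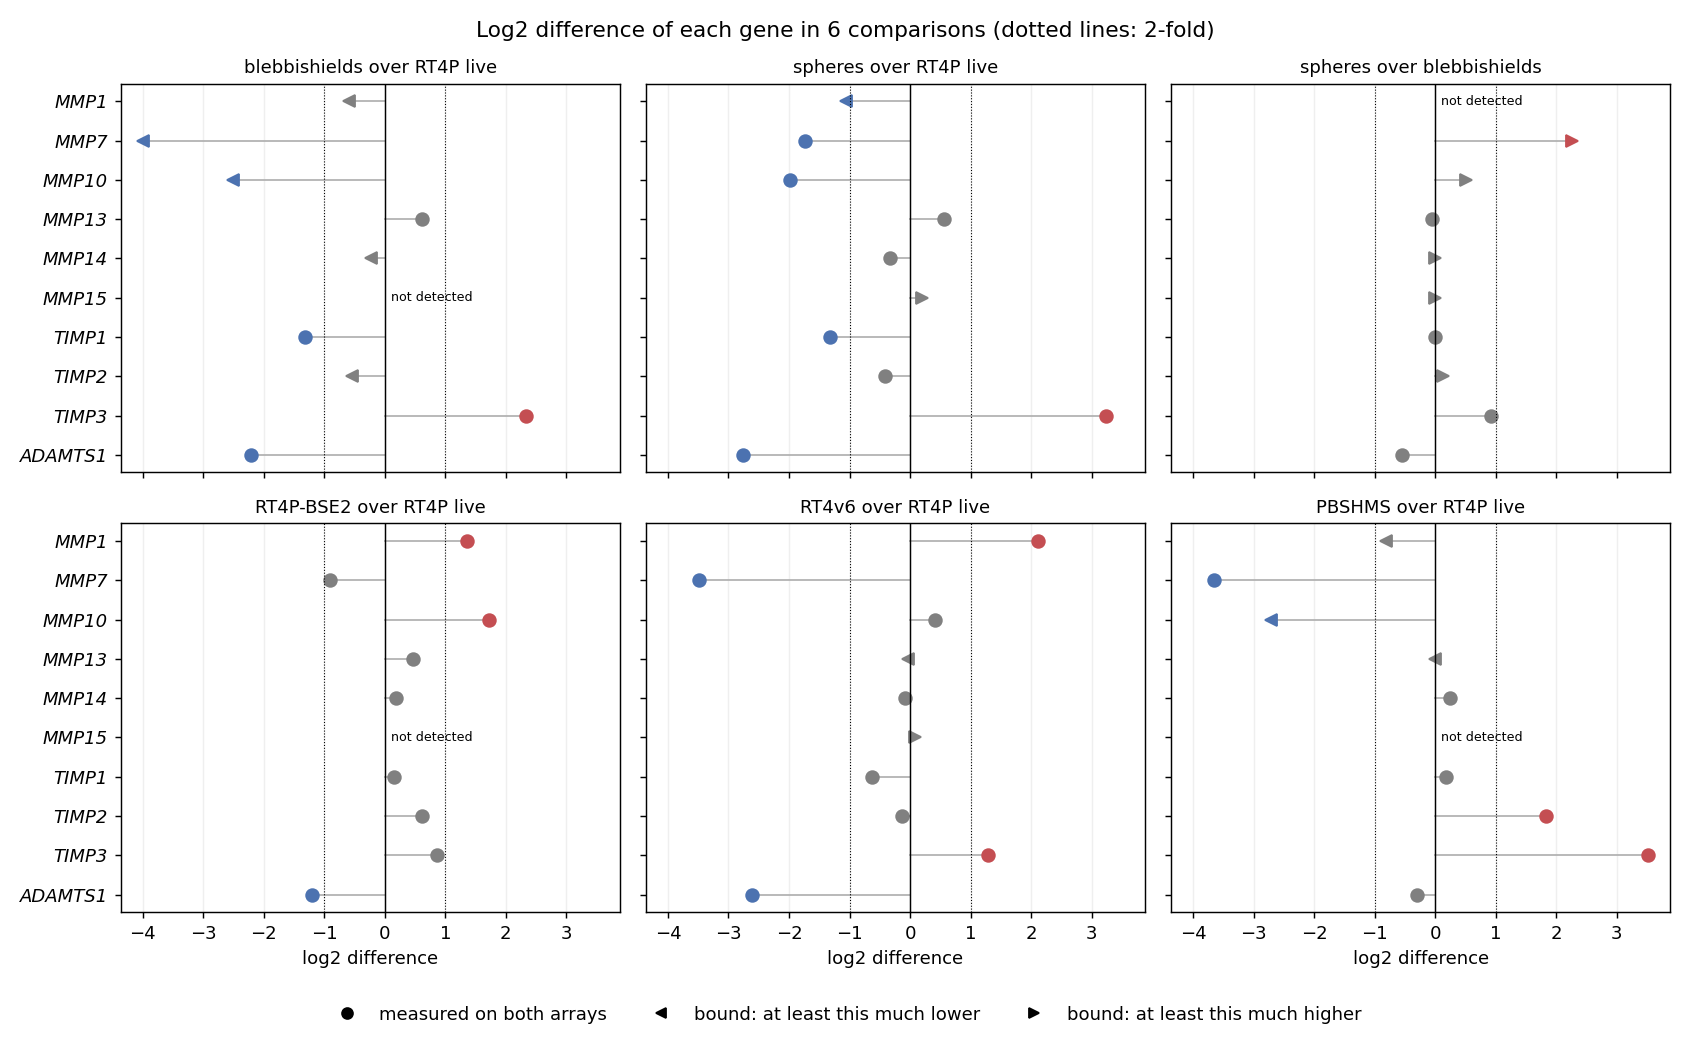
Log2 difference (horizontal axis) of each member (vertical axis) in the 6 comparisons, first-named sample minus second, with circles where both arrays detected the probe and triangles for bounds. TIMP3 lies right of 0 in all 6 panels, and MMP7 lies left of 0 in all 5 panels against RT4P live cells.

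The cluster on chromosome 11 was read in gene order, MMP7, MMP20, MMP27, MMP8, MMP10, MMP1, MMP3, MMP12 and MMP13. Between MMP7 and MMP10 no probe of MMP20, MMP27 or MMP8 was detected on any array. MMP3, the stromelysin closest in sequence to MMP10, was detected only in RT4P-BSE2 (5.21) and PBSHMS (5.28), both near the detection limit. MMP12, the macrophage elastase, gave levels of 7.08 in spheres, 5.36 and undetected in blebbishields, 5.27 in RT4P-BSE2, 6.19 in RT4v6, 4.33 and undetected in PBSHMS and 5.17 in RT4P live cells. It was 3.76-fold higher in spheres than in RT4P live cells and at least 3.05-fold higher than in blebbishields. MMP12 was therefore high in spheres, where MMP7, MMP10 and MMP1 were lower than in RT4P live cells. Its second probe was also highest in spheres, at 6.33, and undetected in blebbishields, PBSHMS and RT4P live cells.

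**Figure D4:**
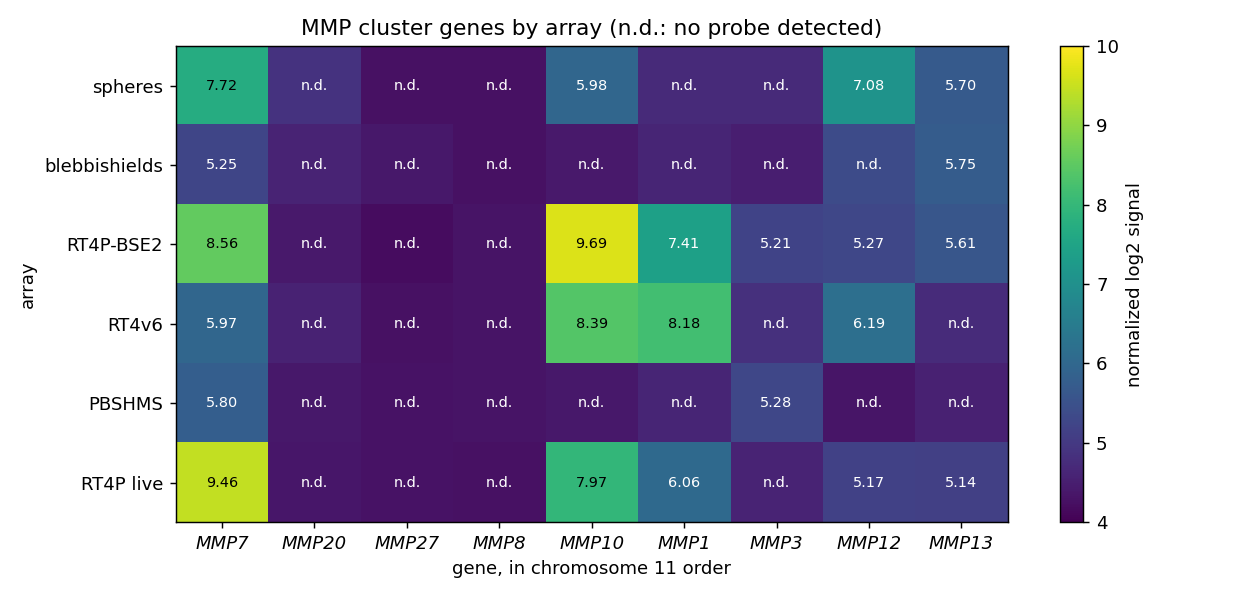
Normalized log2 signal (colour and number) of each cluster gene's brightest probe, by array (rows) and in gene order along chromosome 11 (columns), where n.d. means that no probe of the gene was detected (for MMP7 in blebbishields the dimmer probe was). MMP10 is highest in RT4P-BSE2 (9.69), MMP1 in RT4v6 (8.18), MMP12 in spheres (7.08) and MMP7 in RT4P live cells (9.46).

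Of 18 further genes, the other MMPs and TIMP4, only MMP3, MMP12, MMP19, MMP23B and MMP28 were detected on at least 1 array. MMP2 and MMP9, the gelatinases, and TIMP4 were not detected on any. MMP28, or epilysin, a protease of epithelia, was detected everywhere, at 8.5 in spheres, 7.30 in blebbishields, 8.55 in RT4P-BSE2, 9.27 in RT4v6, 7.89 in PBSHMS and 8.39 in RT4P live cells. It was 2.12-fold lower in blebbishields than in RT4P live cells and 2.29-fold higher in spheres than in blebbishields. Its 3 probes ranked RT4v6 highest.

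Among 11 ADAM proteases, which shed surface proteins, 7 to 9 were measured in a comparison. None passed 2-fold against RT4P live cells in blebbishields, RT4P-BSE2 or RT4v6. Of all genes 11.8%, 1.57% and 3.55% did in these comparisons, so these counts are near the background. In PBSHMS, ADAM23 was 3.58-fold higher and ADAM9, which sheds growth factor precursors, 3.23-fold higher than in RT4P live cells. ADAM23 was also the 1 member of this list past 2-fold in spheres against RT4P live cells, where 6.3% of all genes were. Of the 18 other ADAMTS genes on the array, ADAMTS15 alone was detected, and only in RT4P live cells, so that ADAMTS1 was the main measured gene of its family here.

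Among regulators of extracellular proteolysis, the proteoglycan gene SPOCK1 was 12.4-fold higher in PBSHMS than in RT4P live cells, at 9.03 against 5.40.

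Factors that are known to act on MMP promoters were measured in 16 or 17 of 18 cases. In blebbishields against RT4P live cells 4 were higher and 0 lower, where 7.08% of all genes were higher and 4.76% lower. A count of 0 lower is thus near the background. The higher factors included the AP-1 and related factors FOSB (at least 28.8-fold), FOS (10.5-fold) and ATF3 (2.64-fold). MMP7 was lowest in blebbishields, while MMP1 and MMP10 were undetected both in blebbishields and in PBSHMS, and MMP1 also in spheres. In spheres against RT4P live cells 0 were higher and 3 lower, JUN (3.09-fold), JUNB (2.63-fold) and FOS (2.06-fold). Of all genes 2.99% were higher and 3.3% lower there, so a count of 0 higher is near the background. In RT4P-BSE2 FOS was 2.06-fold higher and JUN 2.49-fold lower. In RT4v6 ETV4, an ETS factor, was 3.15-fold higher, while JUN was 3.57-fold and JUND 2.29-fold lower. In PBSHMS JUN was 2.01-fold higher, and FOS (3.03-fold), ETS2 (2.39-fold) and ETV5 (2.05-fold) were lower. RNA levels of these factors do not measure their activity, and their part in the MMP levels was not tested.

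Among known MMP substrates, LAMB3, a laminin chain, was 2.20-fold lower in blebbishields than in RT4P live cells, at 8.12 against 9.25. The hyaluronan receptor CD44 was 2.19-fold lower. SPP1, or osteopontin, was 8.48-fold higher in blebbishields, 24.5-fold higher in spheres and 4.00-fold higher in RT4P-BSE2 than in RT4P live cells. In spheres against blebbishields, CD44 was 3.23-fold, SPP1 2.89-fold and LAMB3 2.26-fold higher. In RT4v6 and PBSHMS 0 of 9 measured substrates passed 2-fold, where 3.55% and 3.83% of all genes did, so these counts are near the background.

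The genes most like each member were sought among 819 genes that varied by at least 2 log2 units and were detected on at least 2 arrays. Likeness was Pearson's r of normalized levels over the 6 arrays, which share the normalization, and is a description of these arrays. Levels of undetected probes entered r. MMP1 was detected on 3 of the 6 arrays and MMP10 on 4, so their r values partly set arrays near background against the others. Genes like MMP10 included OAS2 (r = 0.960) and SULT1C2 (0.949), and MMP1 was most like BST2 (0.977), CD69 (0.958) and TESC (0.951). MMP1 and MMP10 had r = 0.887 with each other. MMP7 was most like ASS1 (0.954), SLPI (0.924) and FEZ1 (0.890). ADAMTS1 was most like SLC4A4 (0.983), COL12A1 (0.979) and NUAK1 (0.962), and TIMP2 most like MED15 (0.981), MAPT (0.977) and UPK1B (0.972). TIMP3 had the loosest matches, S1PR3 (0.848), SPATA18 (0.835) and FBXO32 (0.808), and no gene of the 819 passed r = 0.9 with it. Of the 819 genes 27 passed r = 0.9 with MMP10 and 7 with MMP1.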

How the data were processed

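RNA of 6 samples was measured on 6 arrays, and each label names its own group. The authors deposited non-normalized signal intensity for 47322 probes and, per the file headers, a detection p-value per probe and array. Their processed intensity values have equal quantiles on all arrays. Per the submitters' processing notes GenomeStudio was used, version not given.

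The neqc steps of limma 3.58.1 in R 4.3.3 corrected the background by normexp, with negative controls inferred from detection p-values, added 16, applied quantile normalization and the log2 scale. Genes were compared where a probe had p under 0.01 on either array, represented by its brightest such probe. Calls were at 2-fold, with 1 array per group and no test. The arrays' number limits the precision. The steps were tested on simulated arrays. The members and lists were chosen with earlier results of these data known. From lists of genes, up to 4 past 2-fold with a level of at least 7 on the brighter array were named, and ADAM23 in spheres was named outside this rule after its value was seen. Alternatives were 8 settings, with 2 added after the data were seen. Gene symbols are the table's. Promoters and gene order come from RefSeq, assembly GRCh38.p14. Figures were drawn in Python 3.11.15. Some genes of the lists and of the likeness ranking are not reported here.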

Additional observations from a re-analysis of the deposited data

How the results depend on the processing

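Of 23 member differences called at 2-fold, 19 stayed past 2-fold under every alternative run, and none of the 23 changed direction. Differences under 2-fold were not counted for a change of direction, and some did change. ADAMTS1 in spheres against blebbishields went from -0.55 to 0.08 with equal medians and 0.24 without between-array normalization. Of 514 recomputed values, called or not, 114 moved by more than the probe spread. These included 24 of 56 without background correction and 24 of 56 with the authors' processed values. Without background correction MMP7 was -2.66 in place of -3.99 in blebbishields, and TIMP3 was 2.76 in place of 3.51 in PBSHMS. MMP13 was 0.46 higher in spheres than in blebbishields with equal medians and 0.63 without between-array normalization, in place of -0.05. The exceptions were MMP1 in spheres (-1.06; -1.34 to -0.39 across settings), MMP1 in RT4P-BSE2 (1.35; 0.77 to 1.38), ADAMTS1 in RT4P-BSE2 (-1.21; -1.24 to -0.92) and TIMP3 in RT4v6 (1.28; 0.84 to 1.32), all log2 differences from RT4P live cells. The number of members past 2-fold in RT4P-BSE2 became 1 in place of 3 without background correction and 1 with the authors' processed values. In blebbishields against RT4P live cells it became 8 in place of 5 without a detection filter, 7 at a detection p under 0.05 and 7 without between-array normalization. The added members were MMP1 and TIMP2 in each of these settings, and MMP14 (-1.02) without a detection filter. All of them had bounded differences in the main setting, and without the filter no bound was applied. In spheres against blebbishields the number of members past 2-fold became 3 in place of 1 without between-array normalization. It became 2 with arrays shifted to equal medians, at a detection p under 0.05 and without a detection filter. With the between-array step left out, the all-gene median was -0.70 in blebbishields against RT4P live cells and 0.76 in spheres against blebbishields, so values for the blebbishield array are relative to the typical gene. There, 9.2% of called genes were higher in place of 59.8%, and 95.8% in place of 33.5%. The split was 59.0% in place of 47.5% for spheres and 31.1% in place of 46.9% for PBSHMS, both against RT4P live cells. The share of all genes past 2-fold ranged over the alternatives from 5.9% to 33.6% in blebbishields and 2.58% to 6.56% in spheres against RT4P live cells, 4.01% to 34.1% between spheres and blebbishields, 0.721% to 1.64% in RT4P-BSE2, 1.16% to 3.88% in RT4v6 and 1.25% to 4.1% in PBSHMS. Normalizing without the blebbishield array, or over the compared pair alone, moved none of 38 and 28 values by more than the probe spread. No paired analysis was possible because each group has 1 sample. Signal over background limits MMP13, MMP14 and MMP15, whose differences may be larger than measured.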
